A study of Arabidopsis with 26 samples.

Results

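The regions described here are merged peak regions of Arabidopsis SWI/SNF chromatin remodelling subunits that lie around the centromeres of the 5 chromosomes. The peaks of 26 deposited peak lists were merged wherever they shared at least 1 bp, and a merged region was kept when its midpoint fell between 12 and 18 Mb on chromosome 1, 1 and 7 Mb on chromosome 2, 11 and 16.5 Mb on chromosome 3, 2 and 6 Mb on chromosome 4, or 9.5 and 14.5 Mb on chromosome 5. This gave 1844 pericentromeric regions of 23012 regions in all (8.01%), and the other 21168 regions lay on the chromosome arms. The limits were positions and used no measured value.

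In Arabidopsis the centromere of each chromosome is an array of satellite repeats, and the pericentromere around it is heterochromatin. It is dense in transposons and pseudogenes, poor in genes, heavily methylated on its DNA and marked by dimethylation of histone H3 at lysine 9. SWI/SNF complexes use the energy of ATP to move or remove nucleosomes and are known mainly from the promoters and bodies of genes in euchromatin. The ATPases studied were BRM, SYD and MINU2, and the other tagged proteins were the scaffold subunits SWI3A, SWI3C and SWI3D, the core subunit BSH, the SWP73A and SWP73B subunits and the accessory subunits BCL7A and BCL7B.

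Each library was a chromatin immunoprecipitation with the anti-GFP antibody ab290 from 14-day-old seedlings that carried 1 GFP-tagged subunit. By their labels, the lines in which a second subunit was mutated comprised BRM-GFP brm-1 syd-5, 2 SYD lines that carried either swi3d-1 (SYD-GFP syd-5 swi3d-1) or else brm-1 (SYD-GFP syd-5 brm-1), together with SWI3D-GFP swi3d-1 syd-5, each with 2 libraries. The lines with the tagged protein in its own mutant were MINU2-GFP minu2-1 (2 libraries), SWI3D-GFP swi3d-1 (3), SYD-GFP syd-5 (4) and BRM-GFP brm-1 (2), and 1 library each of SWI3A-GFP swi3a-1, BSH-GFP bsh, SWP73A-GFP swp73a-2, SWP73B-GFP swp73b-1, BCL7A-GFP bcl7a-1 and BCL7B-GFP bcl7b-1, and SWI3C-GFP, whose label names no mutation, had 1 library. The labels do not give the promoters of the fusions, and no library without a GFP fusion was used here. Libraries of 1 line are labelled as biological replicates.

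In 19 of the 26 libraries the line in the label differed from the line in the name of the deposited list. Groups were taken as labelled, and every comparison between lines was repeated with the lines named by the lists. Peak numbers per list ranged from 4383 to 21329 over the 5 chromosomes, with a median of 16098. The lists give no read counts, so the sequencing depth is unknown. Another split ran across the labels: 12 lists also held peaks on the genomes of the mitochondrion and the plastid, 62 to 139 in each, and the other 14 held none. These are called the lists with and without organelle peaks. By label, the groups SYD-GFP syd-5 and SWI3D-GFP swi3d-1 mixed both kinds, whereas by list name every line was of 1 kind.

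Pericentromeres held far fewer peaks than the arms, per Mb and also per protein-coding gene. The windows made up 22.2% of the chromosome length that the peaks spanned, 8.92% of the protein-coding genes and 8.01% of the merged regions. There were 69.6 merged regions per Mb in the windows and 228.5 per Mb on the arms, a ratio of 0.305. For every protein-coding gene there were 0.753 regions in the windows and 0.847 on the arms.

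In single lists the contrast was stronger than in the merged set. Between 7.36 and 50.9 peaks per Mb lay in the windows (median 30.6), and between 45.2 and 215.7 per Mb lay on the arms (median 164.7). Averaged over the 15 labelled groups, the log2 ratio of window to arm peak density was −2.32 ± 0.15 (SD, n = 15 groups), or 0.200-fold. All 15 groups lay below 0, between −2.62 and −2.02 (exact two-sided sign-flip test over group means, p = 6.10e-05, the smallest this test can give, and 0.000183 adjusted over 6 such tests). Per protein-coding gene the log2 ratio was −0.78 ± 0.15 (SD, n = 15 groups), or 0.584-fold, again below 0 in 15 of 15 groups (exact sign-flip test, adjusted p = 0.000183). With libraries grouped by list name the 2 log2 ratios were −2.28 and −0.73.

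All 5 chromosomes showed the low density, to different degrees. Chromosome 1 held 506 regions in its window, or 84.3 per Mb, which was 0.373 of the density on its arms. Chromosome 2 held 483 regions, or 80.5 per Mb, 0.346 of its arm density. Chromosome 4 held 253 regions, at 0.288 of its arm density. Chromosomes 3 and 5 were the sparsest, with 322 and 280 regions at 0.253 and 0.242 of their arm densities. Tested on each chromosome alone, the log2 ratio of peak density lay between −2.66 and −2.01, with the same smallest p of 6.10e-05 on each.

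**Figure D1:**
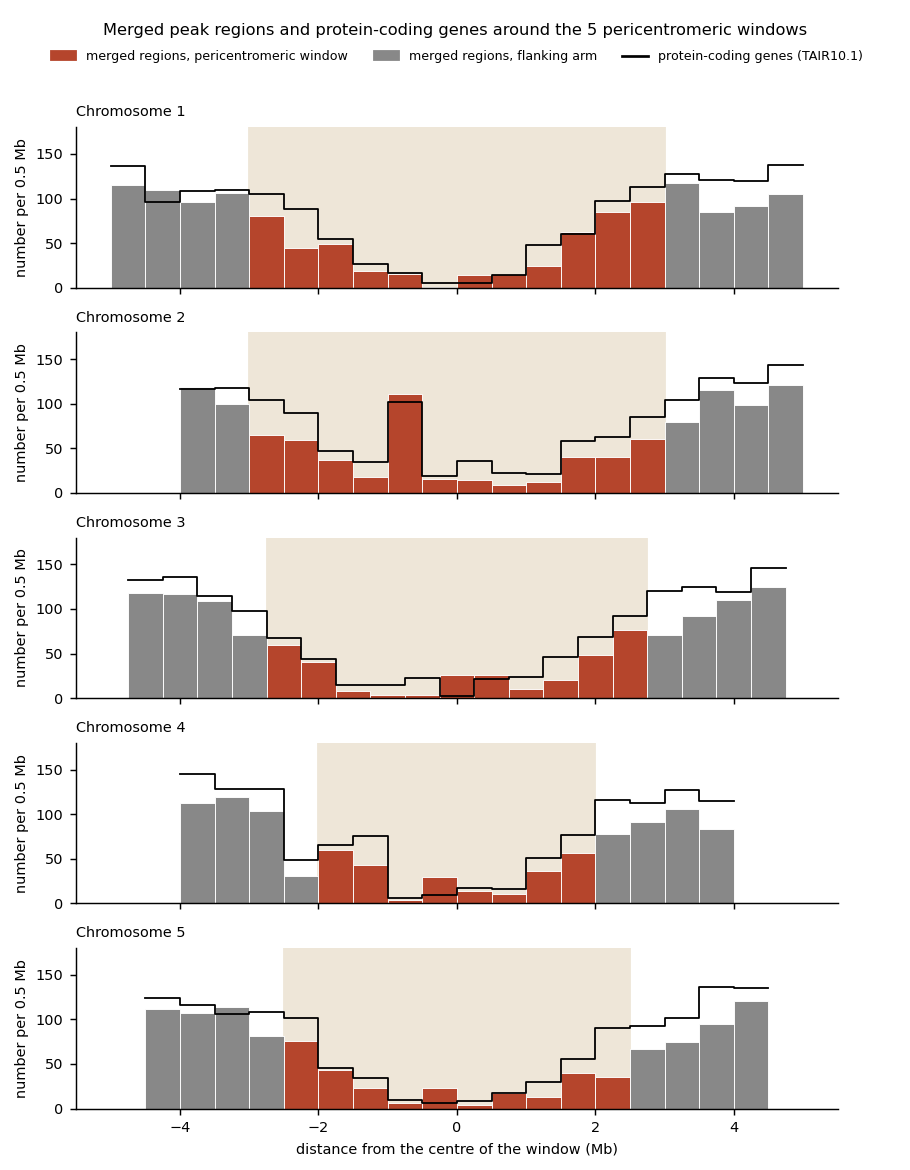
Merged regions per 0.5 Mb along the 5 pericentromeric windows and the flanking arms, against the distance from the window centre in Mb, with protein-coding genes per 0.5 Mb for comparison. Bars are regions (windows shaded) and the line is genes. The counts broadly fall from the window limits inward, to between 1 and 9 regions in the emptiest 0.5 Mb. Exceptions are a bin of 111 regions near the middle of the chromosome 2 window and smaller central rises. These reach 26, 29 and 23 regions on chromosomes 3, 4 and 5.

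The windows were not uniform inside. The emptiest 0.5 Mb held 1 region on chromosome 1, 9 on chromosome 2, 3 on chromosome 3 and 4 each on chromosomes 4 and 5. The fullest held 96, 111, 76, 60 and 76 regions on chromosomes 1 to 5. All of these but that of chromosome 2 lay next to a window limit. Just inside the limits most counts were below those just outside. At the left and right limits of chromosome 1 the inner 0.5 Mb held 80 and 96 regions and the outer 0.5 Mb held 106 and 118. On chromosome 2 the inner counts were 65 and 61 and the outer ones 100 and 79, and on chromosome 3 they were 60 and 76 inside against 71 and 71 outside. On chromosome 4 they were 60 and 57 inside against 31 and 78 outside, and on chromosome 5 they were 76 and 35 inside against 81 and 67 outside. At the left limit of chromosome 4 and the right limit of chromosome 3 the inner side was the denser one.

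Genes in the pericentromeres overlapped a peak region less often than genes on the arms. Of 2449 protein-coding genes in the windows, 1159 (47.3%) overlapped a region of at least 1 list, against 19505 of 24995 (78.0%) on the arms. Over the whole genome the share was 75.3%. In single lists 4.25% to 39.2% of window genes overlapped a peak (median 21.1%), against 13.9% to 69.8% of arm genes (median 50.5%), and the window share was the lower one in 26 of 26 lists. Pseudogenes, a class that in this annotation holds many transposon remnants, overlapped a region less often than protein-coding genes did. Only 65 of 3142 window pseudogenes (2.07%) overlapped a region, against 131 of 775 (16.9%) on the arms. How reads from repeated sequence were mapped is not given in the sources used here, and its part in these counts was not tested. Most pericentromeric regions were still genic: 66.9% of the 1844 regions overlapped a protein-coding gene and 23.4% overlapped no annotated gene, while 83.8% and 13.4% of arm regions did so.

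A small set of regions inside the windows carried peaks in every list. There were 73 such regions (3.96% of the pericentromeric regions), against 2167 (10.2%) on the arms and 9.73% of all regions. Of the 73, 64 (87.7%) overlapped a protein-coding gene. Chromosome 1 had 26 of them, chromosome 4 had 18, chromosome 3 had 13, chromosome 2 had 10 and chromosome 5 had 6. Many of the 73 lay near a window limit. On chromosome 4, whose window runs from 2 to 6 Mb, none of the 18 lay between positions 2746629 and 5728890.

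On each chromosome the region held by all lists with the strongest rank of −log10 q lay on a protein-coding gene. Here q is the adjusted p-value that the authors' peak caller gave each peak, and fold is the caller's enrichment over its background. Both are the authors' own values for a peak. On chromosome 4 this was chr4:2717168-2720670, across the polyubiquitin gene UBQ10 and AGD13, with a lowest, median and highest fold of 2.86, 6.81 and 12.4 over the 26 lists. On chromosome 2 it was chr2:6017866-6018870 on AGL44, a MADS-box gene also known as ANR1 that acts in root responses to nitrate, with folds of 4.61, 8.33 and 13.3.

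The corresponding region of chromosome 5 was chr5:9515120-9516085 on TPR3, which encodes a co-repressor of the TOPLESS family, with folds of 3.71, 8.94 and 18.7. On chromosome 3 it was chr3:15951492-15954091 on CAF1a, a subunit of the deadenylase that shortens messenger RNA tails, with folds of 2.78, 5.49 and 10.03. On chromosome 1 it was chr1:17190221-17193704 on AT1G45688, with folds of 4.22, 8.02 and 13.4.

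Other genes under a region held by all 26 lists, picked from the 73 after their values were seen, are well known regulators and enzymes. Stomatal and epidermal patterning was represented by EPF2, a secreted peptide that restrains stomatal lineage entry (median fold 5.35), and by GTL1, a trihelix factor of trichome growth with a pair of regions (median folds 6.24 and 3.99). Hormone genes included OPR3 of jasmonate synthesis (4.77), the cytokinin receptor gene HK2 (5.16), the co-receptor kinase gene SERK4 (6.03) and the brassinosteroid-responsive gene EXO (6.25). The nitrate reductase gene NIA2 lay under 1 such region (4.83) and beside another (4.88). The aluminium and proton tolerance factor STOP1 (4.54), the transcription factor MYB74 (6.46) and the polyubiquitin gene UBQ11 (4.35) completed this selection.

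Pericentromeric peaks were narrower than arm peaks, while the difference in their fold enrichment did not pass the test. The median peak width per list was 414 to 601 bp in the windows (median over lists 536 bp) and 422 to 789 bp on the arms (610.5 bp), narrower in the windows in 25 of 26 lists. Over the 15 groups the log2 ratio of window to arm width was −0.19 ± 0.13 (SD, n = 15 groups), or 0.877-fold, and lay below 0 in 14 of 15 groups (exact sign-flip test, p = 0.000122, adjusted p = 0.000244). On single chromosomes the ratio lay between −0.23 and −0.11. Merged regions had a median width of 686 bp in the windows and 932.5 bp on the arms.

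The median fold enrichment per list ran between 2.11 and 3.54 in the windows (median 3.02) and between 2.27 and 3.51 on the arms (median 3.16). Its log2 ratio was −0.01 ± 0.07 over the 15 groups, with 8 groups above 0 and 6 below (exact sign-flip test, p = 0.439). In the lists without organelle peaks the ratio was −0.07 and in the lists with them it was 0.04, each with p = 0.0156 (exact sign-flip tests within each kind of list), and the difference between the kinds was not itself tested. Lists without organelle peaks did not all lie below 0, since the ratio was 0.02 and 0 in the BRM line with syd-5 and 0.04 and 0 in BRM-GFP brm-1. On chromosome 2 alone it was −0.11 (exact sign-flip test, p = 0.000122).

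**Figure D2:**
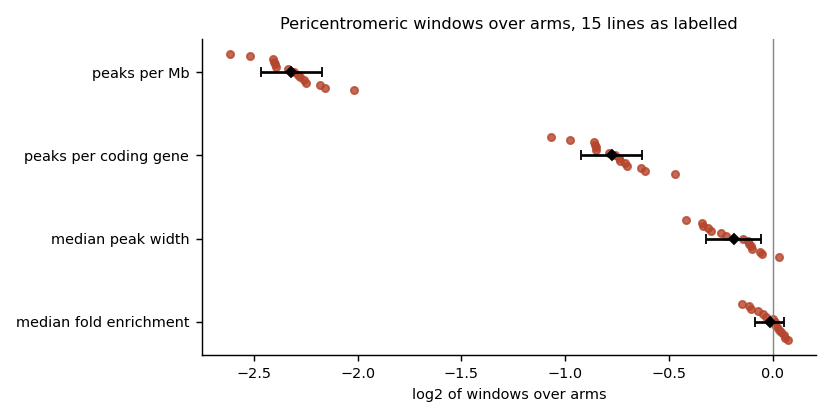
Window over arm log2 ratios of peak density, peaks per protein-coding gene, median width and median fold enrichment. Points are the 15 lines as labelled, diamonds their mean and bars 1 SD. Density and peaks per gene lie below 0 in every group, width lies below 0 in 14 of 15 groups, and fold enrichment straddles 0.

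Fewer lists shared a pericentromeric region than an arm region. A pericentromeric region was held by a median of 9 lists and an arm region by a median of 15. Regions held by 1 list made up 12.9% in the windows (237) and 6.68% on the arms (1415), against 7.18% of all regions. Regions held by 14 to 25 lists made up 30.5% and 43.9%. Each list held between 9.33% and 68.5% of the pericentromeric regions, and between 16.4% and 82.4% of the arm regions.

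**Figure D3:**
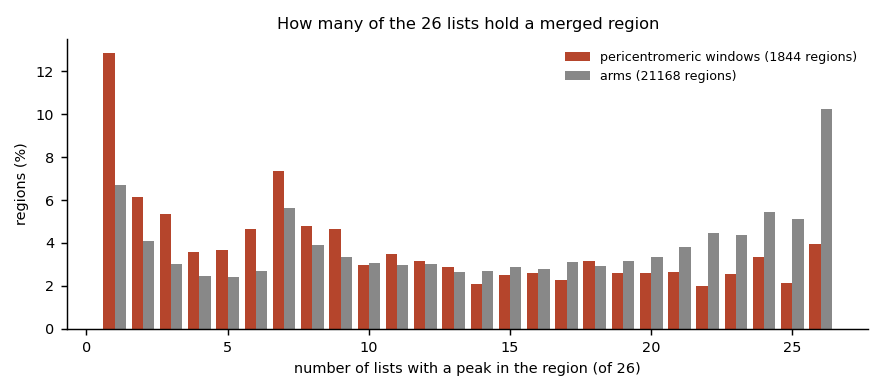
Percent of merged regions held by a given number of the 26 lists, for the pericentromeric windows and for the chromosome arms. The windows carry the larger share of regions held by 1 list (12.9% and 6.68%) and the smaller share of regions held by all 26 (3.96% and 10.2%).

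The regions held by 1 list were also less genic: 41.8% of those in the windows overlapped a protein-coding gene, against 60.9% of those on the arms. Their number varied between lists. The library labelled SWP73B-GFP swp73b-1 alone held 33 in the windows and 184 on the arms. The library labelled MINU2-GFP minu2-1 replicate 2, whose list names SWI3D-GFP swi3d-1 syd-5, alone held 30 in the windows and 26 on the arms.

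Over groups, the percent of a list's peaks that no other list overlapped was 0.74 ± 0.80 points higher in the windows (SD, n = 15 groups), and was higher in 13 of 15 groups (exact sign-flip test, p = 0.000488, adjusted p = 0.000732). Replicates also overlapped less there. The share of a library's peaks met by a peak of another library of its line was 5.26 ± 3.75 points lower in the windows (SD, n = 8 replicated groups), lower in 8 of 8 groups (exact sign-flip test, p = 0.00781, the smallest it can give, adjusted p = 0.00938). By list name this difference was −2.29 points. It no longer passed the threshold, at −0.28 points, with only the 4383 strongest peaks of each library (exact sign-flip test, p = 0.883). The same held when 50% of both lengths had to overlap, again at −0.28 points (exact sign-flip test, p = 0.820).

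A stretch of chromosome 2 between 3.25 and 3.5 Mb separated the 2 kinds of list. It was the only one of 103 window bins of 0.25 Mb, and of 372 arm bins, in which all 12 lists with organelle peaks had a peak and none of the other 14 did. It was picked out by these values, so no test is given. The reference chromosome 2 is known to carry a large copy of the mitochondrial genome next to its centromere.

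The stretch held 103 of the 1844 pericentromeric regions (5.59%), and 21.3% of those on chromosome 2. This was 412 regions per Mb, against 66.1 per Mb in the rest of the chromosome 2 window. The lists with organelle peaks had 17 to 79 peaks in it (median 44), which was 2.29% to 13.9% of their window peaks. Their median fold there lay between 1.72 and 2.14, against 2.65 to 3.54 over all window peaks of the same 12 lists. The regions were held by a median of 4 lists, 24 of them by 1 list and 6 by all 12. Of 86 protein-coding genes annotated in the stretch, 54 overlapped a region.

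Without the stretch, 1741 pericentromeric regions remained. Of these 12.2% were held by 1 list and 4.19% by all 26, with a median of 9 lists and a median width of 695 bp. The log2 density ratio was then −2.37. Whether reads of organelle DNA contributed to these peaks was not tested, since the lists hold no reads.

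Some of the most significant peaks of the genome lay in the pericentromeres. Most of these regions had no peak in the BRM libraries, nor in some other lists without organelle peaks. Regions held by at least 6 lists with a median −log10 q of at least 100 numbered 27 in the windows (1.46%) and 66 on the arms (0.312%), against 0.404% of all regions. Chromosome 4 had 11 of the 27, chromosome 5 had 7, chromosome 2 had 5, and chromosomes 1 and 3 had 2 each. Of the 27, 17 overlapped no annotated gene and 8 overlapped a protein-coding gene.

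Who held them differed between windows and arms. Both sets were chosen for a high median −log10 q over the lists that held them, so which lists held them depends partly on the choice. The counts are given as a description. In the windows 24 of the 27 were held by all 12 lists with organelle peaks, 26 were held by none of the 4 BRM libraries (BRM-GFP brm-1 syd-5 and BRM-GFP brm-1), and 1 was held by all 26 lists. On the arms 53 of 66 were held by all 26 lists and 61 by at least 1 of the BRM libraries. Of the 27, 10 shared the same 18 lists: the 12 with organelle peaks and 6 without. Those 6 were SYD-GFP syd-5 replicates 1 and 2, the pair labelled SYD-GFP syd-5 swi3d-1 (lists named SYD-GFP syd-5 brm-1), and the libraries labelled SWP73A-GFP swp73a-2 and SWI3D-GFP swi3d-1 replicate 1 (lists named SYD-GFP syd-5 swi3d-1).

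The strongest of all was chr3:13590019-13592668, which overlapped no annotated gene. It was the most significant peak of all 18 lists that held it. In the 12 lists with organelle peaks its fold lay between 8.23 and 9.16 and its −log10 q between 2219.6 and 7512. In the other 6 lists its fold lay between 1.56 and 1.86 and its −log10 q between 344 and 688. The 2 kinds of list did not overlap in either value, and the remaining 8 lists had no peak there. This region was chosen for its high −log10 q, so its values too are only a description.

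The leading regions of the other chromosomes are given as a description. They were chosen for a high median −log10 q over the lists that held them, most of which had organelle peaks, so that a high value in those lists was built into the choice. At chr4:3952128-3953768 the median fold was 7.32 in lists with organelle peaks and 1.67 in lists without. At chr5:11184817-11186683 it was 10.4 and 1.70. At chr2:3625642-3627732, on AT2G08986, it was 7.59 and 1.58. At chr1:15082033-15085964, on AT1G40104, it was 5.91 and 1.59. These medians are over the lists that held the region.

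**Figure D4:**
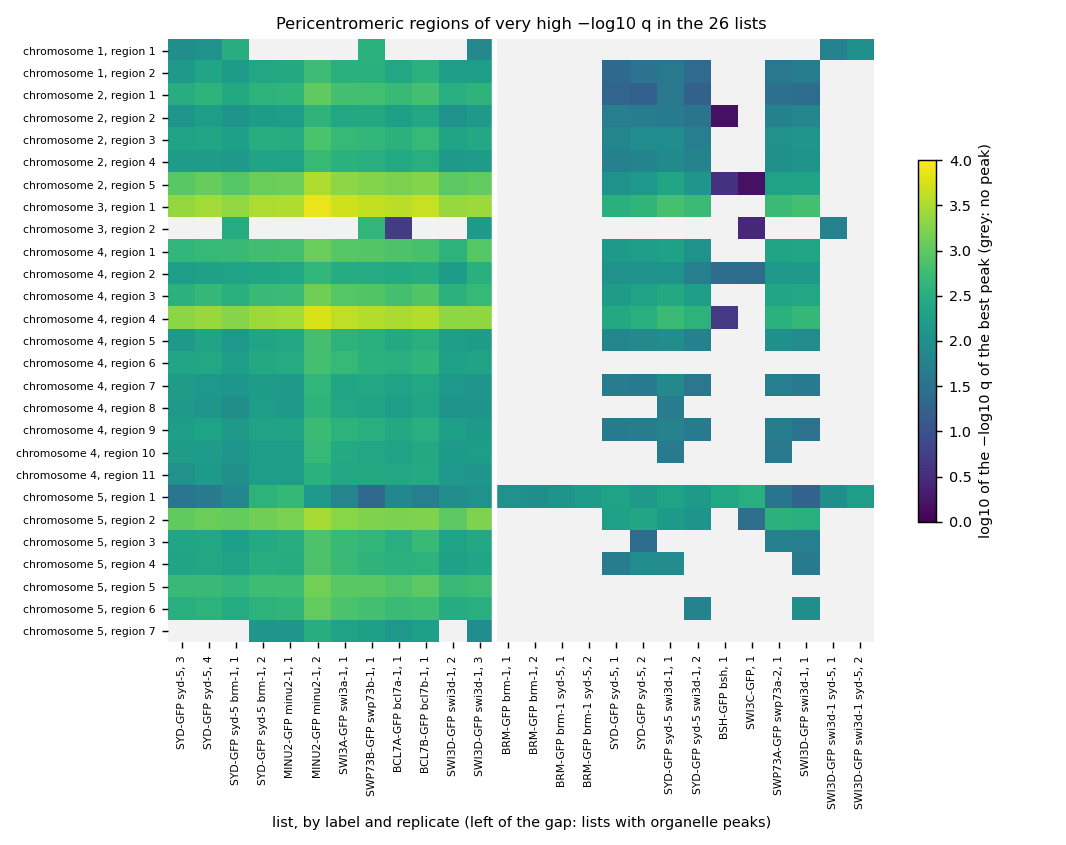
Best −log10 q (colour, on a log10 scale, with grey for no peak) of the 27 pericentromeric regions of very high −log10 q (rows) in each of the 26 lists (columns), with the lists with organelle peaks left of the gap. At the leading region the 12 lists with organelle peaks sit between 2219.6 and 7512 and the 6 other lists that hold it between 344 and 688, while BRM lists hold 1 of the 27 regions.

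Ranks within a list differed as well. Of the 10 most significant peaks of each list, 6 to 10 lay in the windows in the lists with organelle peaks, and 10 in both lists named SYD-GFP syd-5 swi3d-1, which have no organelle peaks. The number was 2 or 3 in SYD-GFP syd-5 replicates 1 and 2 and in the pair labelled SYD-GFP syd-5 swi3d-1. It was 0 in 8 lists, namely those of the 4 BRM libraries and of the libraries labelled BSH-GFP bsh, SWI3C-GFP and, with both replicates, SWI3D-GFP swi3d-1 syd-5. Ranked by fold instead, 1 to 8 of the 10 leading peaks lay in the windows in the lists with organelle peaks (median 2). In the lists without them the number was 0 or 1, and it was 0 in both lists named SYD-GFP syd-5 swi3d-1. With no untagged control used here, how many of these regions would appear without a GFP fusion was not tested. Leaving out all regions of very high −log10 q from windows and arms moved the log2 density ratio to −2.36.

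The widest pericentromeric regions were of several kinds. The widest of all, chr3:14197743-14205073 with 7331 bp, covered the annotated ribosomal RNA genes AT3G41768 and AT3G41979. It was held by 20 lists at a low fold of 1.27, 1.92 and 2.21 (lowest, median and highest). On chromosome 4 the widest was chr4:3055860-3061467 with 5608 bp, on short non-coding genes and a pseudogene, also in 20 lists, with folds of 1.60, 5.01 and 6.11. The other 3 chromosomes had protein-coding genes under theirs. These were chr1:12177031-12182568 on AT1G33590 and AT1G33600 (5538 bp, 26 lists), chr5:13900331-13905623 on AT5G35735 (5293 bp, 26 lists) and chr2:1145433-1150115 on the sulfotransferase gene SOT12 and AT2G03750 (4683 bp, 24 lists). The widest arm region had 22752 bp.

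The share of a library's peaks that lay in the windows was low in every line. It ran between 4.45% and 6.60% with a median of 5.24%. The 95% Wilson interval of the lowest library was 3.88% to 5.10% and that of the highest 6.26% to 6.96%, which cover counting error only.

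**Figure D5:**
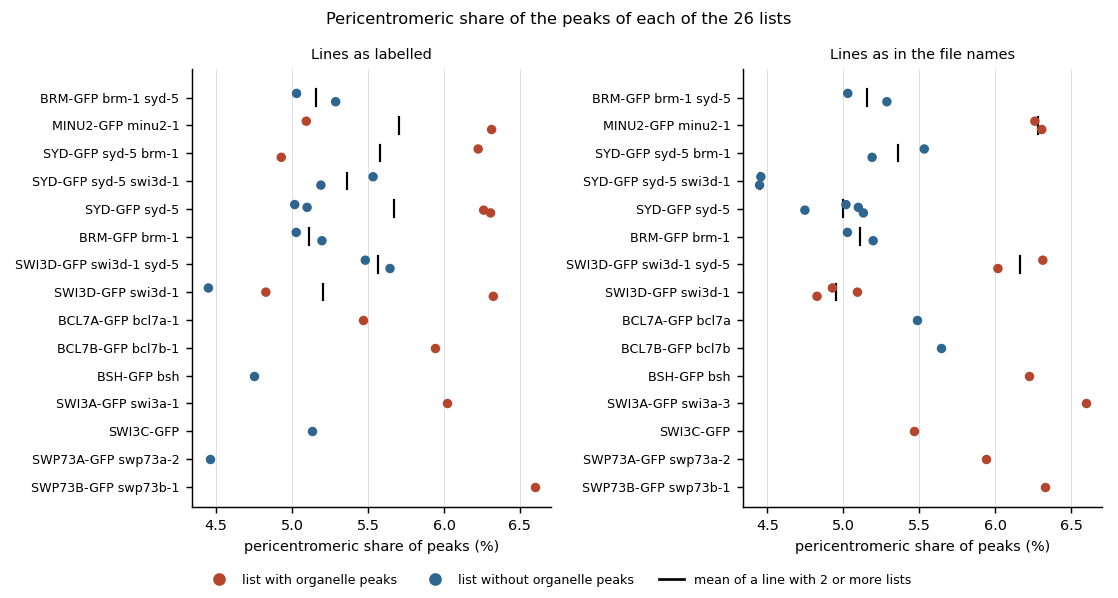
Percent of each library's peaks that lie in the pericentromeric windows, by line as labelled (left) and as in the list names (right). Points are libraries, black ticks the means of lines with 2 or more, and shares run between 4.45% and 6.60%, with the highest in lists with organelle peaks (red).

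For BRM the shares with and without the second mutation lay close together. BRM-GFP brm-1 syd-5 had 5.03% and 5.29% of its peaks in the windows, against 5.03% and 5.20% in BRM-GFP brm-1. The difference was 0.05 points (exact permutation test, p = 0.667, where 0.333 is the smallest that 2 against 2 libraries allow). In these 4 libraries label and list name accord and none holds organelle peaks. SYD-GFP syd-5 replicates 1 and 2 had 5.02% and 5.10%, 0.05 points below BRM-GFP brm-1 (difference −0.05, exact permutation test, p = 0.667). Replicates 3 and 4 of that line, whose lists are named MINU2-GFP minu2-1, were left out there, and with all 4 the difference was 0.559 points.

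For the remaining lines the answer depended on whether the label or the list name was followed. By label none of the 6 comparisons of shares separated the groups, and their adjusted p was 0.70 in each (exact permutation tests). SYD-GFP syd-5 swi3d-1 averaged 5.36 ± 0.24% and SYD-GFP syd-5 averaged 5.67 ± 0.71% (SD, n = 2 and 4). SYD-GFP syd-5 brm-1 averaged 5.58 ± 0.92% (SD, n = 2) against the same 5.67%. SWI3D-GFP swi3d-1 syd-5 averaged 5.56 ± 0.11% and SWI3D-GFP swi3d-1 averaged 5.20 ± 0.99% (SD, n = 2 and 3). MINU2-GFP minu2-1 averaged 5.70 ± 0.86% and BRM-GFP brm-1 averaged 5.11 ± 0.12% (SD, n = 2 each).

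By list name 4 of the 6 comparisons had groups that did not overlap, each at the smallest p its size allows and none past the adjusted threshold. SYD-GFP syd-5 swi3d-1 averaged 4.45 ± 0.01% and SYD-GFP syd-5 averaged 4.999 ± 0.175% (SD, n = 2 and 4, exact permutation test, p = 0.0667, adjusted p = 0.20). SYD-GFP syd-5 brm-1 averaged 5.36 ± 0.24% against the same 4.999% (exact permutation test, p = 0.0667, adjusted p = 0.20). None of these libraries holds organelle peaks, but the lists named SYD-GFP syd-5 swi3d-1 are the smallest, with 5227 and 4383 peaks.

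SWI3D-GFP swi3d-1 syd-5 by list name averaged 6.17 ± 0.21% and SWI3D-GFP swi3d-1 averaged 4.95 ± 0.13% (SD, n = 2 and 3, exact permutation test, p = 0.1, adjusted p = 0.20). All 5 of these lists hold organelle peaks, and without the chromosome 2 stretch the difference was 1.21 points. MINU2-GFP minu2-1 averaged 6.28 ± 0.03% and BRM-GFP brm-1 averaged 5.11 ± 0.12% (SD, n = 2 each, exact permutation test, p = 0.333, adjusted p = 0.50). There the MINU2 lists hold organelle peaks and the BRM lists do not, so line and kind of list cannot be told apart. Without the chromosome 2 stretch the difference was 0.94 points.

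Region by region, few pericentromeric BRM regions differed with the syd-5 mutation. Of 667 pericentromeric regions with a peak in both BRM-GFP brm-1 syd-5 libraries, 28 (4.20%) had none in either BRM-GFP brm-1 library, against 3.64% on the arms and 3.67% of all such regions. In the other direction 27 of 665 regions of BRM-GFP brm-1 (4.06%) were without one in the syd-5 line, against 4.91% on the arms and 4.87% of all such regions. Both pericentromeric shares were close to the share over all regions.

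Only 1 of the 4 regions of highest rank in these directions lay on a gene. The sucrose synthase gene SUS4, under chr3:15183856-15185091, had folds of 2.54 and 3.06 with syd-5 (BRM-GFP brm-1 syd-5), while BRM-GFP brm-1 had no peak. At chr1:13559151-13559902, on no gene, the folds were 3.14 and 3.37 in the syd-5 line. The reverse was seen at chr1:16664379-16664992, with folds of 4.63 and 4.58 in BRM-GFP brm-1, and at chr4:2658421-2659166, with 2.93 and 3.01. A region without a peak may still hold signal below the caller's threshold.

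Regions held by SYD and not by BRM, or the reverse, made up a larger share in the windows than on the arms. Of 616 regions held by SYD-GFP syd-5 replicates 1 and 2, 94 (15.3%, 95% Wilson interval 12.6% to 18.3%) had no peak in BRM-GFP brm-1, against 7.66% on the arms (7.18% to 8.17%) and 8.06% of all regions. Of 665 regions held by BRM-GFP brm-1, 111 (16.7%) had no peak in those SYD-GFP syd-5 libraries, against 9.93% on the arms and 10.3% of all such regions. With all 4 libraries of the lists named SYD-GFP syd-5 the shares were 7.54% (41 of 544, interval 5.60% to 10.07%) in the windows and 6.03% (5.59% to 6.51%) on the arms, where the intervals overlap, with 6.11% for windows and arms together. In the other direction they were 10.5% (70 of 665) and 5.25%, with 5.53% for both together. Regions of neighbouring sequence are not independent, so these intervals cover counting error only.

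Examples on the BRM side were the regions on FAB1D, a phosphoinositide kinase that acts on endosomal membranes, and on the transcribed pseudogene AT5G28280. The region of FAB1D, chr1:12485149-12486094, had folds of 4.47 and 4.20 with syd-5, against 5.44 and 5.19 in BRM-GFP brm-1. That of AT5G28280, chr5:10262626-10264433, had folds of 5.52 and 4.67 in BRM-GFP brm-1. Neither had a peak in SYD-GFP syd-5 replicate 1 or 2, but both had a peak in replicates 3 and 4 of that label. Both also had a peak in the libraries labelled BSH-GFP bsh and SWI3C-GFP, whose lists are named SYD-GFP syd-5. On the SYD side the leading regions were those of very high −log10 q on chromosomes 3 and 4 described above, chr3:13590019-13592668 and chr4:3952128-3953768. Both were also held by all 12 lists with organelle peaks, of several tagged subunits. The libraries labelled BSH-GFP bsh and SWI3C-GFP, whose lists are named SYD-GFP syd-5, had no peak at the first. At the second SWI3C-GFP had none and BSH-GFP bsh had a −log10 q of 4.59.

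The lists named for MINU2 held more pericentromeric regions, 1036 and 1124, than those named BRM-GFP brm-1, with 751 and 755. They also held more arm regions, 14287 and 15140 against 12895 and 12560. By label the MINU2-GFP minu2-1 libraries held 768 and 502 window regions and 12811 and 6654 arm regions. Of 971 regions held by both lists named MINU2-GFP minu2-1, 386 (39.8%) had no BRM-GFP brm-1 peak, against 23.0% on the arms and 24.1% of both together. In turn 110 of 665 BRM-GFP brm-1 regions (16.5%) had no MINU2 peak, against 12.3% on the arms and 12.6% of both together. By label 103 of 412 MINU2-GFP minu2-1 regions had no BRM-GFP brm-1 peak, 25% against 4.66% on the arms and 5.87% of both together, and 185 of 665 BRM-GFP brm-1 regions had no MINU2-GFP minu2-1 peak, 27.8% against 15.6% on the arms and 16.2% of both together. By list name, regions with a MINU2 peak and neither a BRM nor a SYD peak made up 19.8% in the windows (365) and 10.5% on the arms. Regions with peaks of all 3 ATPases made up 30.4% and 50.9%, and regions with none of them 18.1% and 9.30%. By label the same classes made up 10.5% of the window regions and 4.86% of the arm regions for MINU2 alone, 28.0% and 48.9% for all 3, and 32.4% and 20.6% for none. In these classes by label, SYD stood for SYD-GFP syd-5 replicates 1 and 2 only, with replicates 3 and 4 left out. By list name it stood for every list named SYD-GFP syd-5, so the 2 readings are not like for like. The MINU2-named lists are also longer (17505 and 18711 peaks) than the BRM-GFP brm-1 lists (15694 and 15375), and they hold organelle peaks; the part of either was not tested.

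The share of regions without a peak in a line with a second mutation varied widely between the lines. By list name, 372 of 544 regions held by all 4 SYD-GFP syd-5 lists (68.4%) had no peak in the line with swi3d-1, whose lists hold 5227 and 4383 peaks. The share was 56.6% on the arms and 57.2% of both together. By list name, 39 of those 544 regions (7.17%) had no peak in the line with brm-1, against 5.86% on the arms and 5.93% of both together. Of 482 regions held by all 3 lists named SWI3D-GFP swi3d-1, 124 (25.7%) had no peak in the line with syd-5, whose lists hold 8759 and 7062 peaks, against 32.9% on the arms and 32.6% of both together. By label, 39 of 438 SYD-GFP syd-5 regions (8.90%) had no peak in the line with swi3d-1, against 5.46% on the arms and 5.62% of both together.

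Regions found in the lines with a second mutation and not in their parents were counted in the same way. Of 355 regions held by both lists named SWI3D-GFP swi3d-1 syd-5, 34 (9.58%) had no peak in any list named SWI3D-GFP swi3d-1, against 13 of 5039 (0.258%) on the arms and 0.871% of both together. Of 603 regions held by both lists named SYD-GFP syd-5 brm-1, 29 (4.81%) had no peak in SYD-GFP syd-5, against 0.821% on the arms and 1.05% of both together. The lists named SYD-GFP syd-5 swi3d-1 shared 127 pericentromeric regions, of which 3 (2.36%) had no peak in SYD-GFP syd-5, against 0.261% on the arms and 0.356% of both together.

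As labelled, SYD-GFP syd-5 swi3d-1 had 35 of 603 regions (5.80%) without a peak in SYD-GFP syd-5, against 1.37% on the arms and 1.62% of both together. SYD-GFP syd-5 brm-1 had 4 of 548 (0.730%), against 0.609% on the arms and 0.615% of both together, a share close to that of all regions. SWI3D-GFP swi3d-1 syd-5 had 17 of 969 (1.75%) without a peak in SWI3D-GFP swi3d-1, against 4.66% on the arms and 4.49% of both together. In the reverse direction, 39 of 138 regions of SWI3D-GFP swi3d-1 (28.3%) were without a peak in the labelled syd-5 line, against 4 of 3147 (0.127%) on the arms and 1.31% of both together. Of the 27 regions of very high −log10 q, 24 had no peak in either library labelled SWI3D-GFP swi3d-1 syd-5, whose lists are named for BCL7A and BCL7B. Each of these libraries held 65 of the 66 such regions on the arms. SWI3D-GFP swi3d-1 replicates 1, 2 and 3 held 19, 24 and 27 of the 27, so the 24 and the 39 overlap. The 39 had a median percentile of −log10 q of 98.3, against 76.7 for the rest of the 138. What part the 24 have in the difference between windows and arms was not tested.

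Among the lines with 2 or more libraries, a few pericentromeric regions were held by all libraries of 1 line and by no other list. By list name, SWI3D-GFP swi3d-1 syd-5 had 18 in the windows (0.976% of the pericentromeric regions) and 4 on the arms (0.0189% of the arm regions), with 0.0956% of all regions. SYD-GFP syd-5 brm-1 had 10 in the windows (0.542%) and 17 on the arms (0.0803%), with 0.117% of all regions. BRM-GFP brm-1 had 3 and 25, BRM-GFP brm-1 syd-5 had 1 and 12, and SWI3D-GFP swi3d-1 had 1 and 11, which are 0.122%, 0.0565% and 0.0521% of all regions. Lines with a single list were not part of this count. The list named SWI3A-GFP swi3a-3 alone held 33 window regions and 184 arm regions, and that named BSH-GFP bsh held 22 and 98. Those named for BCL7A and BCL7B held 11 each in the windows, with 177 and 174 on the arms. The lists named for SWP73B, SWI3C and SWP73A held 8, 4 and 3 in the windows and 50, 0 and 1 on the arms. Over all 26 lists, 14.3% of the regions held by 1 list lay in the windows, against 8.01% of all regions. By label the same 10 belong to SYD-GFP syd-5 swi3d-1, because they come from the same libraries, and the 18 belong to no line, because their libraries are labelled MINU2-GFP minu2-1 replicate 2 and SWI3A-GFP swi3a-1 replicate 1.

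The 18 regions lay mostly away from genes: 13 overlapped no annotated gene and 1 overlapped a protein-coding gene, AT1G45223, at chr1:17141291-17141989. Their median fold over the pair of libraries lay between 2.26 and 3.91 and their −log10 q between 3.69 and 16.6. The highest fold belonged to chr3:13838644-13839191, with 4.65 and 3.17 in the pair. Of the 18, 12 lay on chromosome 1.

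They were clustered. Across chr1:15100459-15437944, a stretch of 0.337 Mb, 9 of the 12 pericentromeric regions were held by this pair alone. Each of the pair held 11 of the 12, and any other list held at most 1. At chr4:3842750-3852027 all 3 regions were held by this pair alone. The runs were found after the values were seen, and no test is given for them. The 10 regions of the lists named SYD-GFP syd-5 brm-1 had median folds between 1.961 and 3.39, and 9 of them overlapped no annotated gene. Among these, chr3:15294619-15295005 had folds of 3.55 and 3.24, and chr5:14005341-14005678, whose nearest gene is the phytochrome gene PHYC, had 3.33 and 3.17.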

How the data were processed

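Each library was analysed from its deposited peak list. The submitters' processing notes name fastp, Bowtie2, MACS2 2.0, deepTools and ChIPseeker and the TAIR10 build, without their settings; whether a control library entered peak calling is not given in the sources used here. In the deposited lists the authors give each peak a score, a fold enrichment (a ratio over background), a −log10 p-value, a −log10 q-value and a summit offset, in the 10-column layout of that caller. Score and −log10 p-value were not used. Each library had its own deposited list.

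Peaks on chromosomes 1 to 5 were merged over all 26 lists (1 bp overlap) and assigned by midpoint. The arms ended at the last peak end of any list. Densities, median widths and folds, peaks met by no other list and peaks met by another library of the line were computed per library and averaged per labelled group. The 6 window to arm differences were tested over group means with exact two-sided sign-flip tests, the 6 differences in pericentromeric share with exact two-sided permutation tests over libraries, each family with Benjamini-Hochberg adjustment at 0.05. Intervals are 95% Wilson intervals. The steps were tested on simulated data. Tools were python 3.11.15, numpy 2.4.6, pandas 2.3.3, scipy 1.17.1 and matplotlib 3.10.9.

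Gene names, classes and overlaps come from RefSeq genes of the TAIR10.1 assembly, a different release from the build named, so no gene coordinates are given; peak summits were most frequent next to gene ends in all 26 segments of 5 Mb checked. Region coordinates are those of the lists, counted from 1. No genome was used, so planned sequences and motifs were left out.

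Regions named by rule are, per chromosome, the region held by most lists (ties by mean rank of −log10 q), the one with the highest median −log10 q among those held by at least 6 lists, and the widest; for BRM-GFP brm-1 with and without syd-5 and for SYD-GFP syd-5 against BRM-GFP brm-1, the 2 of highest rank in each direction; and the 2 of highest rank among regions of 1 line only. The members, windows and lists were chosen with earlier results of these data known. The p-values of the sign-flip tests measure the spread between group means of different lines, and 7 of the 15 labelled groups had a single library. Those of the permutation tests rest on the spread between libraries of the lines compared, which by label are biological replicates.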

Additional observations from a re-analysis of the deposited data

Results flagged for a closer look

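Peaks outside the 5 chromosomes were present in 12 of the 26 lists, which held 62 to 139 peaks on the mitochondrial and plastid genomes, while the other 14 lists held none. No value of these peaks was compared above, but their presence defines the 2 kinds of list used there. They are singled out because they lie outside the 5 chromosomes on which the comparisons were made. Their presence did not follow the lines as labelled: libraries labelled SYD-GFP syd-5 and SWI3D-GFP swi3d-1 were of both kinds, whereas by list name every line was of 1 kind. The 12 lists were the ones with peaks in the chromosome 2 stretch between 3.25 and 3.5 Mb. In the single group of 4 libraries, 10 values were checked for a library far from the others, and none was.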

How the results depend on the processing

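Of 258 alternatives for the 6 window to arm differences, 236 kept direction and side of the 0.05 threshold, and of 108 for the differences in share between lines, 84 did; the cause of the others was not tested. Alternatives without the chromosome 2 stretch, without the regions of very high −log10 q, with the last annotated gene as chromosome end, with crossed pairs and combining list names with another choice were chosen after seeing the data. The planned chromosome ends from a reference genome could not be used. With only the 7 libraries whose label and list name accord (4 groups, exact sign-flip tests, where 0.125 is the smallest p), density was −2.43, width −0.27, peaks per gene −0.89, unshared peaks (counted among 7 lists) 4.75 points and replicate overlap −2.33 points (3 groups, p = 0.25, the smallest there). The log2 fold ratio passed the threshold in the lists without organelle peaks (−0.068, exact sign-flip p = 0.0156) and on chromosome 2 (−0.11, exact sign-flip p = 0.000122). It was above 0 in the lists with organelle peaks (0.043, exact sign-flip p = 0.0156), with equal numbers of strongest peaks (0.0072), on chromosomes 1 (0.023), 4 (0.066) and 5 (0.010), without the chromosome 2 stretch (0.0089), by list name with equal numbers (0.015) and as a percentile of −log10 q (1.32 points). Replicate overlap missed the threshold with equal numbers (−0.28), by list name with equal numbers (−1.40), at 50% overlap (−0.28), on chromosome 4 (−2.19) and, with few groups, in lists without (−2.71, smallest p 0.0625) and with organelle peaks (−7.44, smallest p 0.125). Unshared peaks missed it on chromosome 4 (0.41 points). Leaving out each replicate gave −2.34 to −2.30 for density, −0.20 to −0.18 for width, −0.80 to −0.75 for peaks per gene, −0.0195 to −0.0077 for fold, 0.717 to 0.909 for unshared peaks and −5.92 to −4.26 for replicate overlap.

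The differences in share, none past the threshold, changed sign as follows. BRM-GFP brm-1 syd-5 minus BRM-GFP brm-1 was −0.0687 at −log10 q of at least 10. SYD-GFP syd-5 minus BRM-GFP brm-1 was 0.0747 in covered bases, 0.180 in narrowed windows and 0.559 when the SYD side held all 4 labelled libraries. Then SYD-GFP syd-5 swi3d-1 minus SYD-GFP syd-5 was 0.303 within lists without organelle peaks. SYD-GFP syd-5 brm-1 minus SYD-GFP syd-5 was 0.358 in covered bases, 0.362 by list name and also without the stretch, 0.372 by list name with equal numbers and 0.3004 by list name without the regions of very high −log10 q. SWI3D-GFP swi3d-1 syd-5 minus SWI3D-GFP swi3d-1 was −1.26 in covered bases, −2.64 at −log10 q of at least 10, −1.75 with equal numbers and −0.196 in narrowed windows. Leaving out each replicate, the 6 differences in the order of their first mention in the report ran between −0.0824 and 0.175, −0.139 and 0.0308, −0.527 and −0.0977, −0.742 and 0.554, −0.0126 and 0.925, and −0.0186 and 1.201. The replicate numbers are shared between lines but only 2 pairs exist and no label says they mark a shared batch, so pairing was not established; same-numbered libraries deviated together with correlations between −0.154 and 0.425 over bins. With the replicate number as a block the differences were 0.0463, −0.0539, 0.303 (sign turned), 0.519 (sign turned), 0.925 and 0.591 in that order, with no call changed, and crossed pairs of SYD-GFP syd-5 and BRM-GFP brm-1 gave 0 calls as well.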
